A study of Homo sapiens with 10 samples.

Results

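The genes described here are 10 interferon-stimulated genes, ISG15, IFIT1, IFIT2, IFIT3, MX1, OAS1, IFI6, IFI27, IRF7 and IRF9, chosen by symbol among the 23426 gene symbols of each table. All 10 had a row in each of the 10 samples, and all 10 passed the limit used for testing, a mean above 0.1 FPKM (fragments scaled by the length of the transcript and the size of the library) in at least 1 group of samples. The samples were RNA-seq libraries of 2 established human breast cancer cell lines, the basal-like, triple-negative line MDA-MB-468 and the luminal line ZR75-1. Each line was harvested after 6 h in the solvent DMSO (n = 2) or in 1 μM PKC412 (midostaurin, a staurosporine-derived inhibitor of many kinases, n = 3). The tables therefore compare the genes by agent within each line and by line within each agent. Nothing in the labels says that replicates came from separate cultures, so the p-values measure the spread between these samples, which may be technical. In bulk RNA a lower level in every cell and a smaller share of expressing cells cannot be told apart.

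Interferons are secreted proteins that cells release when they sense foreign nucleic acid. Type I interferon binds the receptor chains IFNAR1 and IFNAR2, the kinases JAK1 and TYK2 become active, and a complex that contains IRF9 then binds interferon-stimulated response elements (ISREs) and switches on the genes described here. Interferon gamma acts through another element, the gamma-activated site (GAS). Breast carcinoma lines can hold a basal level of these transcripts without added interferon.

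Before the levels, the promoter sequences of the genes are described. The genes were chosen by name as interferon-stimulated, so a share of ISREs above that of all genes is no independent result. RefSeq promoters on the GRCh38.p14 build were available for 8 of the 10 genes, all but IFIT2 and IRF7. In the 250 bases before each start, the ISRE core GAAANNGAAA on either strand was found for 6 of these 8 (ISG15, IFIT1, IFIT3, MX1, IFI6 and IFI27), against 3.71% of the 27305 genes and 3.02% of the 35116 starts in the table. The GAS letters TTCNNNGAA were found for 4 of the 8 (MX1, OAS1, IFI27 and IRF9), against 8.09% of genes and 6.57% of starts. Of the 3 MX1 starts in the table, 1 had a match, and there, as in IFI27, the ISRE and GAS matches overlap. Windows of ISG15, IFIT1, MX1, IFI6, IFI27 and IRF9 are printed here, and those of IFIT3 and OAS1 are not. Each window runs 5′ to 3′ in the direction of its gene. The ISRE core is in capitals and, in IRF9 alone, the GAS letters are in capitals.
ISG15, plus strand, chr1:1013364-1013419: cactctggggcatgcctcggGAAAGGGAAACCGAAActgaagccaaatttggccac
IFIT1, plus strand, chr10:89392487-89392549: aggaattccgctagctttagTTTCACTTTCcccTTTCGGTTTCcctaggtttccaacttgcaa
MX1, plus strand, chr21:41431834-41431883: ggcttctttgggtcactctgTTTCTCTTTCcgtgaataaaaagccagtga
IFI6, minus strand, chr1:27672256-27672368: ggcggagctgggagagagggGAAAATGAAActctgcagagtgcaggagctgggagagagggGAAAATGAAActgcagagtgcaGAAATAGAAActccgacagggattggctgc
IFI27, plus strand, chr14:94110608-94110670: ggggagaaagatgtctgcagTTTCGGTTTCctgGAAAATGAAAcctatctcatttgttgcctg
IRF9, plus strand, chr14:24161182-24161230: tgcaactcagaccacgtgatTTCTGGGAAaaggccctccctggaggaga

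The ISG15 window lies 78 to 133 bases before the start and holds 2 overlapping matches. That of IFIT1 lies 74 to 136 bases before the start, with 2 matches on the other strand, and that of IFI6 lies 64 to 176 bases before it, with 3 matches. These matches are letters in a window, and binding was not measured.

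The libraries were checked before the levels were compared. All 7 luminal epithelium markers (ESR1, GATA3, FOXA1, XBP1, KRT18, KRT8 and TFF1) were lower in MDA-MB-468 and all 7 basal markers (KRT5, KRT14, KRT17, KRT6B, EGFR, VIM and FOXC1) were higher, in both treatments. The leukocyte markers PTPRC and CD3E were at or near 0 FPKM in all groups, as were the fibroblast markers COL1A2, PDGFRB and DCN, while CD14 reached 21.7 FPKM in MDA-MB-468 in DMSO. The remaining fibroblast marker, COL1A1, had 2.50 FPKM in DMSO and 8.94 in PKC412 in ZR75-1, where it rose (1.49 in log2(FPKM + 1), limma adjusted p = 0.0181), and its part in the results for ZR75-1 was not tested. FPKM sums ranged from 599228 to 835069, and the number of reads behind a value is unknown. The samples differed in how their FPKM ran with the GC content of the transcripts. In MDA-MB-468 this slope, in log2 units per 10 percentage points of GC, was 0.373 and 0.057 in DMSO and −0.287, −0.024 and −0.119 in PKC412, so the treatments did not overlap. In ZR75-1 it was 0.314 and −0.192 in DMSO and −0.107, 0.342 and −0.356 in PKC412, which overlapped.

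In DMSO the levels of the 10 genes, per transcript length, spanned a wide range in both lines. ISG15, a ubiquitin-like protein that is joined to other proteins, was the highest of the 10 in MDA-MB-468 at 99.2 ± 30.0 FPKM (SD, n = 2). Below it came IRF7 (mean 10.6 FPKM), OAS1 (8.84), MX1 (7.35), IRF9 (6.63) and IFI6 (4.50), and then IFIT3 (0.981), IFI27 (0.821), IFIT2 (0.280) and IFIT1 (0.187). Only 2 pairs of neighbours in this order had overlapping samples, IRF7 with OAS1 and IFIT3 with IFI27. In ZR75-1 the order was another one, led by IFI6 at 109 ± 22.5 FPKM (SD, n = 2) and ISG15 at 97.7 ± 52.8. IFI27 (13.0), OAS1 (9.90), IRF9 (9.56), IRF7 (4.92) and MX1 (1.80) followed, and the 3 IFIT genes were lowest, at 0.762 for IFIT1, 0.619 for IFIT3 and 0.424 for IFIT2. In ZR75-1 the samples of IFI6 and ISG15 overlapped, as did those of OAS1 and IRF9 and those of each IFIT gene with the next.

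**Figure D1:**
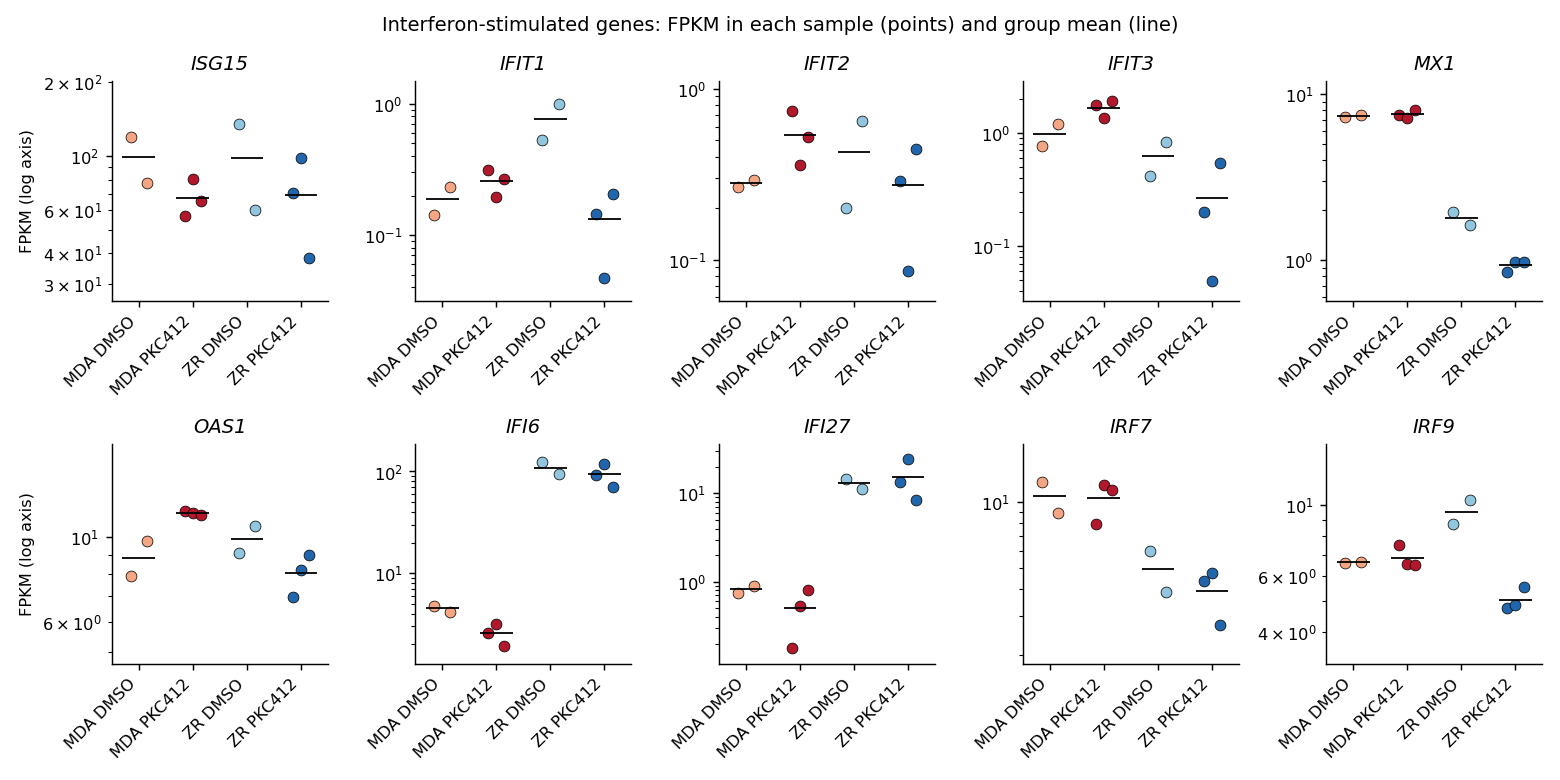
FPKM of the 10 genes in each of the 10 samples (points) by group, with the group mean as a line. The vertical axes are logarithmic and differ between panels; IFI6 and IFI27 separate the lines by more than 10-fold, whereas the points of ISG15 overlap in all 4 groups.

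The largest differences among the 10 genes were between the lines. IFI6 and IFI27, small hydrophobic proteins of mitochondrial and other membranes that are among the genes most strongly induced by type I interferon, were high in ZR75-1 and low in MDA-MB-468. MX1, a dynamin-like GTPase that restricts viruses, and IRF7, the transcription factor that amplifies interferon production, were higher in MDA-MB-468. These 4 differences were present in DMSO and in PKC412. The 2 treatments use different samples, so their values are separate measurements of the difference between the lines. The tests share an estimate of the spread of each gene over all 10 samples, so their p-values are not independent.

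IFI6 was at 4.80 and 4.20 FPKM in the DMSO samples of MDA-MB-468 and at 125 and 93.5 in those of ZR75-1. In PKC412 it was at 2.60, 3.19 and 1.92 in MDA-MB-468 and at 91.6, 118 and 71.1 in ZR75-1. Every ZR75-1 sample was above every MDA-MB-468 sample, and the ratio of the means was 24.3 in DMSO and 36.4 in PKC412. Folds and ratios are of mean FPKM, while differences and tests are on the scale of log2(FPKM + 1). On that scale MDA-MB-468 was lower by 4.31 in DMSO (difference −4.31, 95% interval −4.92 to −3.71, limma adjusted p = 6.34e-06). In PKC412 the difference was −4.71 (−5.21 to −4.22, limma adjusted p = 8.42e-07).

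IFI27 had 0.738 and 0.903 FPKM in MDA-MB-468 in DMSO against 14.7 and 11.3 in ZR75-1. In PKC412 the values were 0.176, 0.529 and 0.802 against 13.4, 24.3 and 8.40. Neither treatment showed overlap between the lines, and ZR75-1 was 15.8-fold higher in DMSO and 30.6-fold higher in PKC412. The differences were −2.93 (SE 0.42, limma adjusted p = 0.000717) and −3.35 (SE 0.34, limma adjusted p = 7.16e-05).

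MX1 showed the opposite order, with 7.28 and 7.43 FPKM in DMSO and 7.49, 7.14 and 7.97 in PKC412 in MDA-MB-468. In ZR75-1 it had 1.96 and 1.63 FPKM in DMSO and 0.848, 0.973 and 0.970 in PKC412. MDA-MB-468 was 4.10-fold higher in DMSO and 8.10-fold higher in PKC412, again without overlap, and the differences were 1.58 (SE 0.15, limma adjusted p = 6.08e-05) and 2.14 (SE 0.12, limma adjusted p = 2.28e-06).

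IRF7 had 12.3 and 8.90 FPKM in MDA-MB-468 in DMSO and 5.98 and 3.86 in ZR75-1. In PKC412 it had 7.96, 11.9 and 11.3 against 4.35, 4.72 and 2.73. The lines did not overlap, with differences of 0.98 in DMSO (SE 0.30, limma adjusted p = 0.029) and 1.21 in PKC412 (SE 0.24, limma adjusted p = 0.00311). The DMSO call was lost without MDA-MB-468 DMSO replicate 1 (adjusted p = 0.161) or ZR75-1 DMSO replicate 2 (0.15), under median-ratio scaling (0.114) and with a replicate block over both lines (0.0643). The PKC412 call was kept in all 19 alternatives.

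For IRF9, a DNA-binding subunit of the complex at ISREs, the order of the lines differed by treatment. Its DMSO samples had 6.61 and 6.64 FPKM in MDA-MB-468 and 8.76 and 10.4 in ZR75-1, and its PKC412 samples had 7.50, 6.56 and 6.49 against 4.77, 4.86 and 5.54. MDA-MB-468 was below ZR75-1 in every DMSO sample and above it in every PKC412 sample. The differences were −0.47 (SE 0.15, limma adjusted p = 0.0332) and 0.37 (SE 0.12, limma adjusted p = 0.0271). The change of the difference with treatment did not itself pass (limma adjusted p = 0.204). Both calls were lost with a replicate block over both lines (adjusted p = 0.0867 in DMSO and 0.0701 in PKC412) and with rescaling to the same FPKM sum (0.225 and 0.0639), and the one in PKC412 also under median-ratio scaling (0.134). Both depended on single libraries too. The one in DMSO was lost when any of MDA-MB-468 DMSO replicates 1 and 2, MDA-MB-468 PKC412 replicates 2 and 3, ZR75-1 DMSO replicate 2 or ZR75-1 PKC412 replicate 1 was left out (adjusted p between 0.0513 and 0.15), and the one in PKC412 when any MDA-MB-468 PKC412 sample or ZR75-1 PKC412 replicate 1 or 2 was left out (0.05 to 0.0997).

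Over all 10 genes, 6 passed an adjusted p of 0.05 between the lines in DMSO, with MX1 and IRF7 higher in MDA-MB-468 and IFI6, IFI27, IFIT1 and IRF9 lower. Of all 16071 genes tested 42.4% passed in that comparison, in which the median difference was −0.14 over the 10 genes and 0.11 over all genes. In PKC412, 7 of the 10 passed, against 58.6% of all genes. Of these, MX1, IRF7, IFIT3, OAS1 and IRF9 were higher in MDA-MB-468, and IFI6 and IFI27 were lower. The medians there were 0.32 and 0.19. For the number of calls the 10 genes thus lay near the other genes of these lines.

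**Figure D2:**
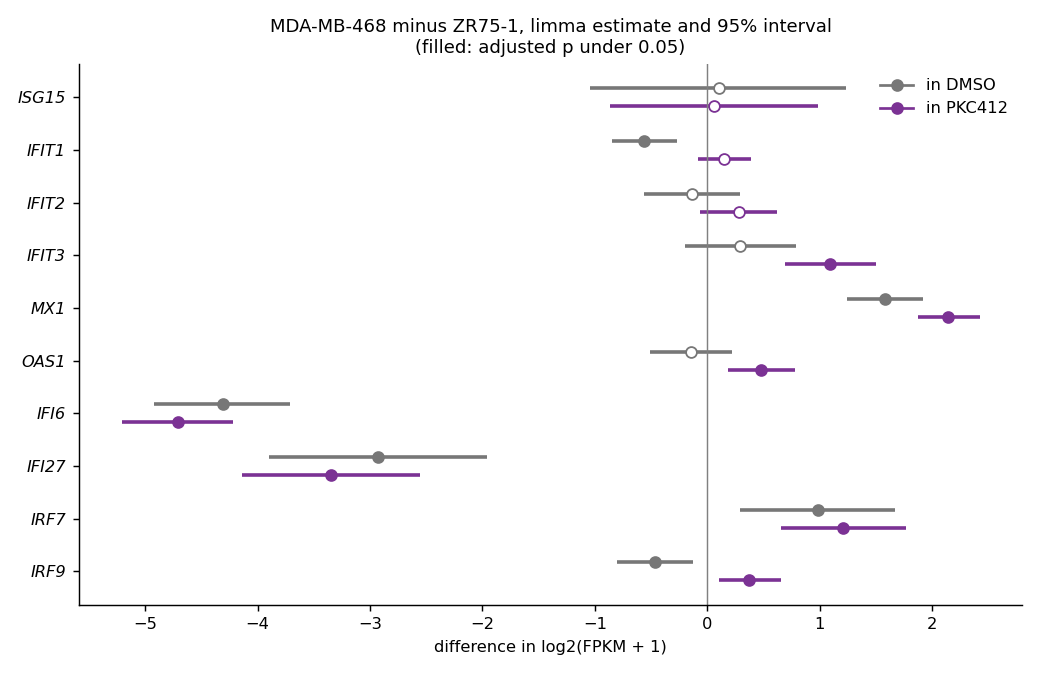
Difference MDA-MB-468 minus ZR75-1 in log2(FPKM + 1) for the 10 genes, with the 95% interval from limma, in DMSO (grey) and PKC412 (purple); filled points have an adjusted p under 0.05. IFI6 and IFI27 lie far to the left in both treatments, MX1 and IRF7 to the right, and IRF9 changes side.

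ISG15 did not differ between the lines beyond its spread. It had 120 and 77.9 FPKM in MDA-MB-468 and 135 and 60.4 in ZR75-1 in DMSO, and 57.0, 80.3 and 65.3 against 70.5, 98.5 and 38.2 in PKC412. The intervals of the difference were wide, from −1.04 to 1.23 in DMSO and from −0.87 to 0.98 in PKC412, so that an abundant transcript was here the least precisely compared of the 10. OAS1, a synthetase of oligoadenylates that activate RNase L, differed by −0.15 in DMSO (95% interval −0.51 to 0.22, limma adjusted p = 0.502) and by 0.48 in PKC412 (limma adjusted p = 0.0128). The latter call was lost under median-ratio scaling (adjusted p = 0.0643).

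PKC412 against DMSO gave smaller differences. In MDA-MB-468 none of the 10 genes passed. An unadjusted limma p under 0.05 was found for 2 (OAS1 and IFI6), and for 16.4% of all genes. Of all genes tested, 1.26% passed in this comparison. The median difference was 0.03 over the 10 genes and 0.11 over all genes. In ZR75-1 only IRF9 passed and it fell, where 0.946% of all genes passed. There 3 of the 10 (IRF9, IFIT1 and MX1) had an unadjusted limma p under 0.05, as did 11.2% of all genes. The median difference in ZR75-1 was −0.32 over the 10 genes and 0.07 over all genes, and 9 of the 10 estimates were below 0, the exception being IFI27 (0.12).

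IRF9 in ZR75-1 went from 9.56 ± 1.13 FPKM in DMSO (SD, n = 2) to 5.06 ± 0.416 in PKC412 (SD, n = 3), a ratio of 1.89. All 3 PKC412 samples (4.77, 4.86 and 5.54 FPKM) were below both DMSO samples (8.76 and 10.4). The difference was −0.80 (SE 0.13, 95% interval −1.11 to −0.49, limma adjusted p = 0.0415). In MDA-MB-468 its means were 6.63 and 6.85 FPKM, the samples overlapped, and the difference was 0.04 (−0.27 to 0.35, limma adjusted p = 0.898). The size of the ZR75-1 difference varied little over 21 alternatives, from −0.91 to −0.64, but it passed the threshold in only 7 of them. It was lost whenever any 1 of the 10 libraries was left out (adjusted p from 0.0585 to 0.133), and in a fit of ZR75-1 alone (0.854).

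MX1, IFIT1 and OAS1 were also lower in PKC412 in ZR75-1, without passing. MX1 had 1.96 and 1.63 FPKM in DMSO and 0.848, 0.973 and 0.970 in PKC412, with no overlap, and a difference of −0.53 (SE 0.13, limma adjusted p = 0.177). IFIT1, which binds foreign RNA that lacks a methylated cap, had 0.531 and 0.993 FPKM in DMSO and 0.146, 0.047 and 0.204 in PKC412. Its samples did not overlap either, and its difference was −0.63 (SE 0.11, limma adjusted p = 0.0548). It passed in 3 of 20 alternatives, under median-ratio scaling (adjusted p = 0.0144), without ZR75-1 DMSO replicate 1 (0.026) and after the GC adjustment described further on. OAS1 had 9.08 and 10.7 FPKM against 6.99, 8.19 and 8.97, a narrow separation with a difference of −0.27 (SE 0.14, limma adjusted p = 0.539).

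These 4 genes, IFIT1, MX1, OAS1 and IRF9, had every PKC412 sample of ZR75-1 below every DMSO sample, which 6.98% of all genes tested did. None of the 10 had every PKC412 sample above, which 14.8% of all genes did. IFIT1 was the only one with a ratio of the means of at least 3 in either direction, at 5.76-fold lower in PKC412, where 4.09% of expressed genes had such a ratio. Its level was under 1 FPKM throughout, and the ratio takes no account of spread; without ZR75-1 DMSO replicate 1 or ZR75-1 PKC412 replicate 3 the count was 2, with IFIT3 added, and with 1 FPKM added to both means it was 0.

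In MDA-MB-468, where none of the 10 passed, OAS1 had 7.93 and 9.75 FPKM in DMSO and 11.7, 11.6 and 11.4 in PKC412, and IFIT3, a partner of IFIT1, had 0.767 and 1.20 against 1.75, 1.36 and 1.91. Both genes had every PKC412 sample above every DMSO sample. The differences were 0.36 (SE 0.14, limma adjusted p = 0.288) and 0.43 (SE 0.20, limma adjusted p = 0.31).

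IFIT2, of the same family, had 0.267 and 0.293 FPKM in DMSO and 0.738, 0.358 and 0.518 in PKC412, again without overlap, with a difference of 0.26 (limma adjusted p = 0.398). Of all genes, 39.6% had every PKC412 sample of MDA-MB-468 above every DMSO sample, as did 3 of the 10 here. IFI6 was the 1 gene with every PKC412 sample below, at 2.60, 3.19 and 1.92 FPKM against 4.80 and 4.20, as were 16.3% of all genes, with a difference of −0.64 (SE 0.24, limma adjusted p = 0.27). No gene of the 10 reached a 3-fold ratio, which 7.21% of expressed genes did.

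IFIT1 in MDA-MB-468 had 0.143 and 0.232 FPKM in DMSO and 0.311, 0.195 and 0.269 in PKC412. IFIT1, IFIT2 and IFIT3 are paralogs, and how reads shared between such genes were divided is not given in the sources used here, so their levels below 2 FPKM are uncertain. The log2(FPKM + 1) scale also understates changes at such levels.

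**Figure D3:**
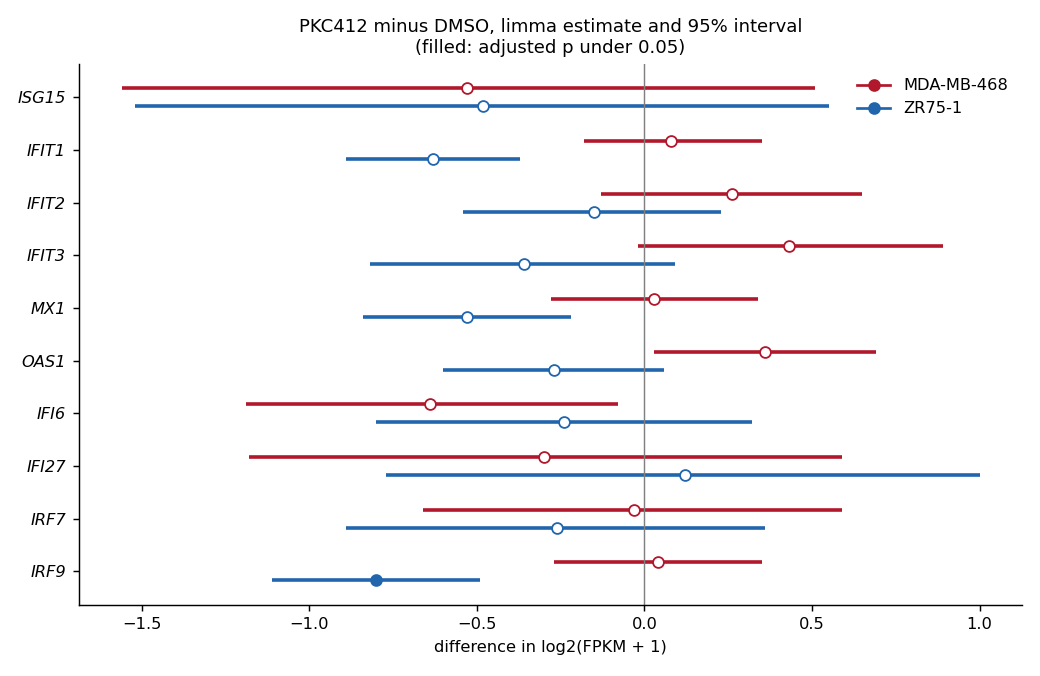
Difference PKC412 minus DMSO in log2(FPKM + 1) for the 10 genes, with the 95% interval from limma, in MDA-MB-468 (red) and ZR75-1 (blue); the filled point has an adjusted p under 0.05. IRF9 in ZR75-1 is the only filled point, at −0.80, and ISG15 has the widest interval in both lines.

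Whether PKC412 acted differently on the lines was tested as the difference between the 2 log2 differences. None of the 10 genes passed (0.268% of all genes did), and 5 had an unadjusted limma p under 0.05 (7.05% of all genes did). These were IRF9 with 0.84 (95% interval 0.40 to 1.27, limma adjusted p = 0.204), IFIT1 with 0.71 (0.34 to 1.08, limma adjusted p = 0.205), IFIT3 with 0.80 (0.16 to 1.44, limma adjusted p = 0.549), OAS1 with 0.63 (0.16 to 1.10, limma adjusted p = 0.493) and MX1 with 0.56 (0.13 to 1.00, limma adjusted p = 0.521). In each of the 5 the estimate was higher in MDA-MB-468 than in ZR75-1. The median was 0.49 over the 10 genes and 0.04 over all genes. The comparisons by agent and by line share their samples, so the values of a gene in them are not independent of each other.

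The 10 genes did not vary together from sample to sample. After the mean of each group was subtracted, ISG15 went with IRF7 (Pearson r = 0.92 over 10 samples) and IFI6 (0.86), and IFIT1 with IFIT2 (0.93) and IFIT3 (0.85), whereas ISG15 ran opposite to IFIT3 (−0.96) and IFIT1 (−0.92). The same deviations ran with the GC slope of the samples. For the GC-rich ISG15 (63.4% GC) r was 0.97 and for IRF7 (66.8%) 0.89, and for IFIT1 (42.2%), IFIT2 (42.8%) and IFIT3 (44.3%) it was −0.90, −0.91 and −0.92. MX1 (52.4%) had an r of 0.34 and OAS1 (48.2%) one of −0.54. IRF9 (55.4%) had −0.75, beside 0.83 for IFI6 (56.1%) and 0.82 for IFI27 (58.2%). The order of r thus did not follow GC content throughout. The points share their libraries and 4 group means, so these are descriptions of the 10 libraries.

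**Figure D4:**
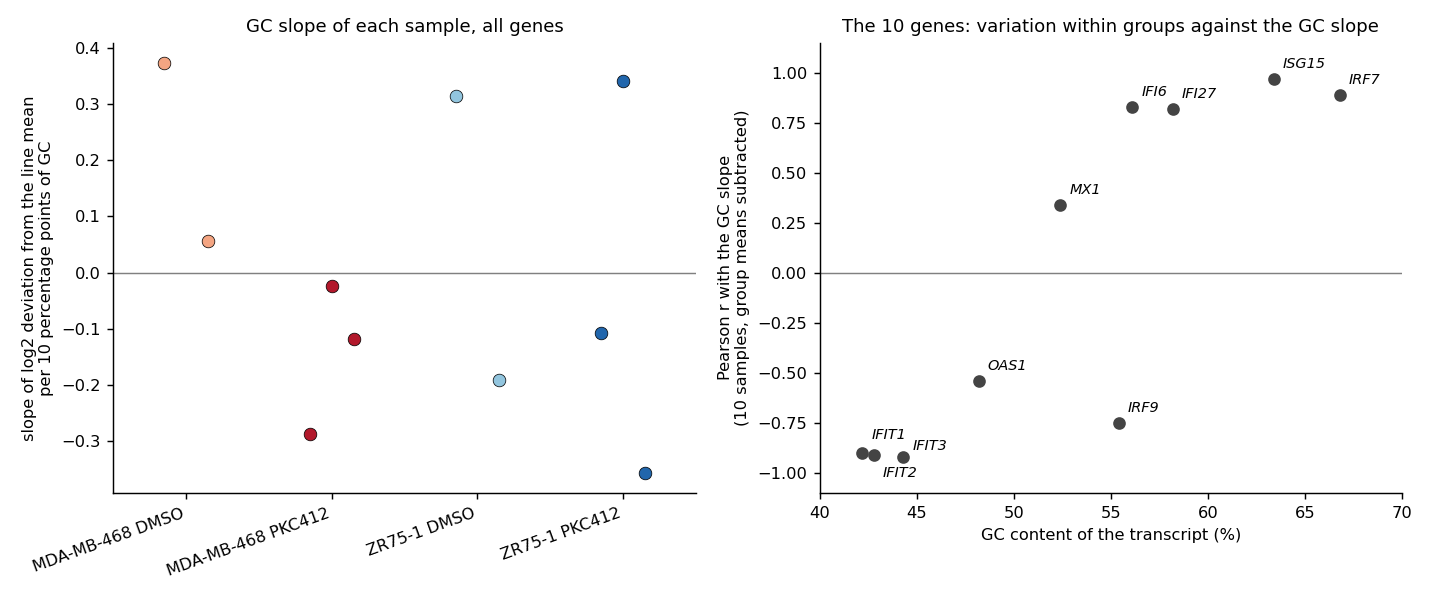
Left, slope of log2 deviation from the line mean on GC content for each sample, by group; right, GC content of each of the 10 genes against the Pearson r of its group-centred log2(FPKM + 1) with that slope over 10 samples. DMSO and PKC412 samples of MDA-MB-468 do not overlap on the left, and the IFIT genes and ISG15 lie at opposite corners on the right.

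Because of this slope the comparisons were repeated on FPKM from which a fitted trend in GC content and length had been divided out, an alternative chosen after the slope had been seen. Within MDA-MB-468 the slope and the treatment go together, so an effect of PKC412 that runs along GC content and a technical one cannot be told apart there. After adjustment none of the 10 genes passed in MDA-MB-468 (3.68% of all genes did). The differences of OAS1 and IFIT3 were 0.10 and 0.19, and that of IFI6 was −0.35 (limma adjusted p = 0.217).

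In ZR75-1 the treatments overlapped in slope, and 3 of the 10 genes passed after adjustment, against 2.84% of all genes. All 3 fell with PKC412. IFIT1 had adjusted levels of 0.842 and 0.806 FPKM in DMSO and 0.127, 0.070 and 0.122 in PKC412 (difference −0.72, limma adjusted p = 0.000104). MX1 had 2.50 and 1.59 against 0.823, 1.02 and 0.768 (−0.69, limma adjusted p = 0.0452), and IRF9 had 9.26 and 10.4 against 4.72, 4.56 and 5.65 (−0.86, limma adjusted p = 0.00914).

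The difference between the lines in the response to PKC412 passed for 2 of the 10 on adjusted FPKM, against 1.29% of all genes. These were IFIT1 (0.69, limma adjusted p = 0.00172) and IRF9 (0.95, limma adjusted p = 0.043). For the lines themselves, 7 of the 10 passed in DMSO (59.3% of all genes) and 9 in PKC412 (68.9%), all but ISG15 in the latter.

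The pathway around the 10 genes was described with 96 further genes, of which 82 could be tested. The interferon ligands were close to 0. None of the 10 ligand genes reached a mean of 0.1 FPKM in any group, the highest mean being 0.0473 for IFNE in MDA-MB-468 in DMSO, and IFNA2, IFNK and IFNG were listed at 0 in every sample. IFNB1 had a mean of 0.0446 FPKM in MDA-MB-468 in DMSO, 0.0278 in PKC412, and was listed at 0 in all ZR75-1 samples.

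Receptors and their kinases were expressed in both lines. IFNAR2, the ligand-binding chain of the type I receptor, had 15.3 ± 0.568 FPKM in MDA-MB-468 (SD, n = 2) and 3.40 ± 0.614 in ZR75-1 (SD, n = 2) in DMSO, a difference of 1.89 (limma adjusted p = 8.93e-05). TYK2, the kinase that docks on IFNAR1, had 40.6 against 5.71 FPKM in DMSO (2.63, limma adjusted p = 1.75e-06) and 47.8 against 7.71 in PKC412. Of the 6 receptor genes, 2 were higher in MDA-MB-468 in DMSO and 5 in PKC412, and none was lower, where 42.4% and 58.6% of all genes passed, most of them higher in MDA-MB-468. None of the receptors and kinases passed for PKC412 in either line.

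Over the whole list, 2 genes rose in PKC412 in MDA-MB-468, 1 rose in ZR75-1, and none fell. With 82 genes tested and 1.26% and 0.946% of all genes called, these counts are near the background. In MDA-MB-468 these were IKBKE, a kinase that activates IRF3 and IRF7, and OASL, a relative of OAS1. IKBKE had 4.71 and 4.91 FPKM in DMSO and 8.87, 8.42 and 9.68 in PKC412 (0.78, limma adjusted p = 0.0231), and OASL had 0.675 and 0.770 against 2.09, 2.13 and 1.95 (0.83, limma adjusted p = 0.0177). All PKC412 samples were above all DMSO samples for both. In ZR75-1 the 1 gene was ISG20, an RNA exonuclease, with 120 and 85.7 FPKM in DMSO and 318, 392 and 218 in PKC412 (1.56, limma adjusted p = 0.0352).

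None of the 3 differed between the lines in its response at the threshold, with adjusted p of 0.0641 for IKBKE, 0.0927 for OASL and 0.469 for ISG20 in limma. The calls of these 3 genes for PKC412 were not examined under the alternatives or after GC adjustment. Over the 82 genes the PKC412 difference had a median of 0.23 in MDA-MB-468, where that of all genes was 0.11, and of 0.01 for ZR75-1, where it was 0.07. The chemokine gene CXCL10, singled out after its values were seen, had 0.0681 and 0.196 FPKM in DMSO and 9.75, 3.79 and 7.03 in PKC412 in MDA-MB-468, without passing (2.72, limma adjusted p = 0.083). In ZR75-1 it had 1.52 and 7.05 against 7.04, 3.13 and 9.91, which overlapped.

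Further interferon-stimulated genes also differed between the lines, in both directions. In DMSO 14 of the 49 tested were higher in MDA-MB-468 and 14 lower, where 42.4% of all genes passed (4266 higher and 2556 lower). In PKC412 23 were higher and 10 lower, where 58.6% of all genes passed (5944 higher and 3477 lower). Highest above ZR75-1 in MDA-MB-468 was IFITM3, a membrane protein that blocks virus entry, with 1005 ± 103 FPKM (SD, n = 2) against 0.683 ± 0.252 (SD, n = 2) in DMSO. IFITM1 of the same family had 50.3 against 4.64 FPKM, and PLSCR1, a phospholipid scramblase, 17.2 against 1.93. UBE2L6, the conjugating enzyme for ISG15, had 53.7 against 12.1 FPKM, and GBP1, a guanylate-binding protein, 2.21 against 0.162.

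On the other side BST2 (tetherin, which holds virions at the cell surface) had 14.1 FPKM in MDA-MB-468 and 580 in ZR75-1 in DMSO. ISG20 had 10.8 against 103 FPKM, SP110, a nuclear body protein, 2.98 against 15.5, the chemokine gene CCL5 0.398 against 4.10, and IFITM2 22.1 against 67.3. Each of these 10 further genes passed in limma in both treatments. IFITM1, IFITM2 and IFITM3 have similar sequences, so their separate levels are uncertain for the reason given for the IFIT genes.

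**Figure D5:**
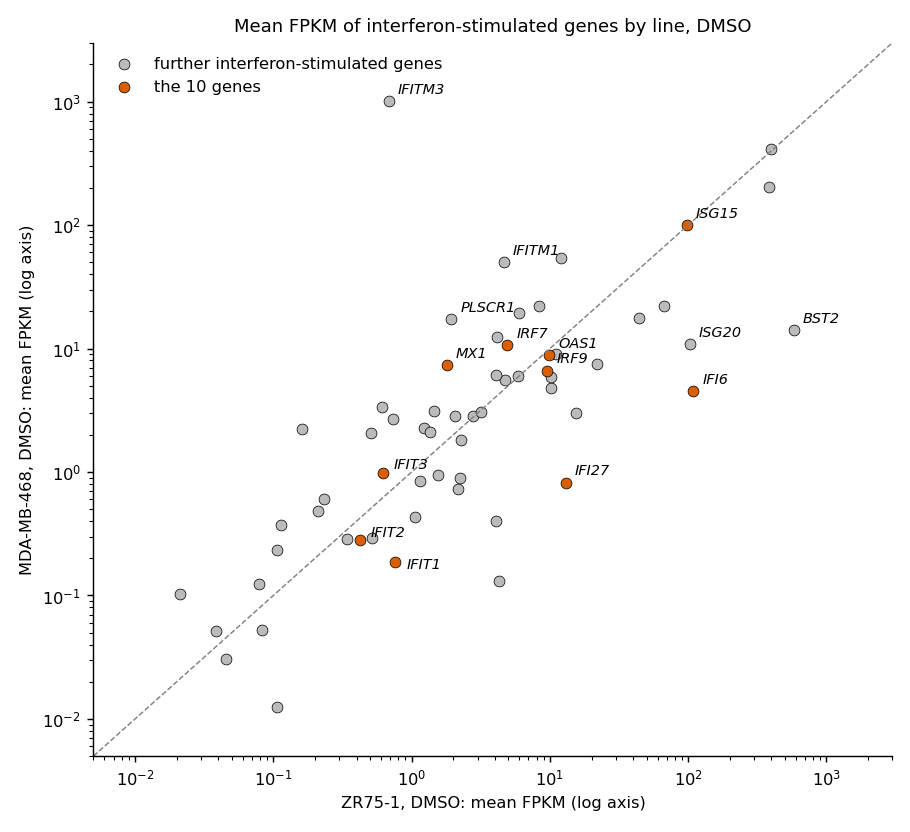
Mean FPKM in DMSO of the 10 genes (orange) and of 51 of the 52 further interferon-stimulated genes (grey) in ZR75-1 and MDA-MB-468, on logarithmic axes with a dashed line of equal level; CXCL11 is left out because it was listed at 0 in MDA-MB-468. IFITM3 lies at the upper left, BST2, ISG20, IFI6 and IFI27 at the right below the line, and ISG15 on it.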

How the data were processed

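Gene expression was read from 1 table per sample, in which the authors deposited FPKM values per gene symbol. Per the submitters' processing notes, CASAVA 1.82, TopHat2 and hg19 were used; the program that estimated FPKM, its annotation and its version are not given in the sources used here. The lowest FPKM above 0 was 2.19e-318, which no read count gives, so depth is unknown and precision rests on replicates. Groups, dose and time were taken from the sample labels; some figure legends of the study give a lower dose, and its methods describe triplicates where 2 DMSO samples per line were analysed here.

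Values were tested as log2(FPKM + 1) with limma 3.58.1 in R 4.3.3 (4 group means, 6 residual degrees of freedom, eBayes with trend) over the 16071 genes with a mean above 0.1 FPKM in at least 1 group, with Benjamini-Hochberg adjustment over all of them at 0.05. The code was checked on simulated data with independent noise for each gene and sample. That check does not cover deviations shared between genes, such as those along GC content. A separate 3-fold rule used ratios of mean FPKM without a pseudocount. The 10 genes, the pathway and marker lists (written from memory) and the tests were chosen with earlier results of these data known. All 10 genes are named. Some genes of the pathway and marker lists are counted but not reported here. Of further interferon-stimulated genes, those passing for PKC412 and 5 with large line differences each way that passed in both treatments are named. These are not in every case the largest in DMSO, where NMI differed by 1.56 and the named GBP1 by 1.43. GC content and length came from GENCODE release 29 by symbol (20638 genes, 88.1%), for the longest coding transcript; the adjustment fitted polynomials of degree 3 within each line. Promoters came from the RefSeq table on GRCh38.p14, a build other than that of the reads. Python 3.11.15, numpy 2.4.6, pandas 2.3.3 and matplotlib 3.10.9 were used. Alternatives were other pseudocounts (0.1, 0.5), limits on FPKM (none, 1), scalings, a prior without trend, the replicate number as a block, each line alone, each sample left out, and the GC adjustment, added later.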

Additional observations from a re-analysis of the deposited data

Results flagged for a closer look

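OAS1 had every PKC412 sample above every DMSO sample in MDA-MB-468 and every PKC412 sample below every DMSO sample in ZR75-1, and the difference between the 2 effects was 0.63 on the log2(FPKM + 1) scale (SE 0.20; limma interaction term, adjusted p = 0.493, unadjusted p = 0.015), which did not pass the threshold.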

How the results depend on the processing

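Of 990 values recomputed under the alternatives, 912 kept their direction and their side of the threshold. Most of the differences were not called in the report, so many of the 912 merely stayed uncalled. Of the other values 35 lost a call, 10 gained one and 33 changed direction. The count of genes called for PKC412 in ZR75-1, 1 in the report, was 2 with median-ratio scaling or without the trend, 3 after GC adjustment, 0 with each sample rescaled to the same FPKM sum and in a fit of each line alone, and 0 to 1 with a sample left out. With a replicate block over both lines or a replicate block within each line it was 0. The deviations of same-numbered samples had an r between −0.756 and 0.846. This r was 0.846 for the DMSO samples of the 2 lines, a single figure because 2 samples mirror each other around their mean. It was not above 0.1 in every pair, so the numbers were not taken as pairs. The calls of IRF7 and IRF9 between the lines in DMSO were lost with the block over both lines (limma adjusted p = 0.0643 and 0.0867). With the block within each line no gene of any kind was called for PKC412 in either line, at 2 residual degrees of freedom. The count for the difference between the lines in their response was 0 in the report and 2 after GC adjustment. The count of 3-fold ratios in ZR75-1, 1 in the report, was 0 with 1 FPKM added or a limit of 1 FPKM, and 1 to 2 with a sample left out. Of the genes called over the whole table, 111 of 202 were higher in PKC412 in MDA-MB-468 and 120 of 152 in ZR75-1; rescaled to the same FPKM sum these were 71 of 104 and 116 of 127, with the median of all genes moved to 0.24 and 0.19.

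The 33 values that changed direction were all of differences called in neither setting, and the cause was not tested. For PKC412 in MDA-MB-468, GC adjustment gave 0.04 for ISG15, −0.03 for IFIT1, −0.18 for MX1 and 0.21 for IRF7, and median-ratio scaling gave −0.08 for MX1 and −0.07 for IRF9. MX1 was −0.01 with the replicate block within each line, and IRF7 was 0.03 with the replicate block over both lines and 0.15 when rescaled. With a sample left out MX1 ranged from −0.01 to 0.06, IRF7 from −0.25 to 0.18 and IRF9 from −0.02 to 0.07. In ZR75-1, with a sample left out, ISG15 ranged from −1.06 to 0.09, IFIT2 from −0.38 to 0.07 and IFI27 from −0.25 to 0.46. For the difference between the responses ISG15 was 0.19 after GC adjustment and −0.62 to 0.53 with a sample left out, and IRF7 was −0.02 with the replicate block within each line and −0.03 to 0.49 with a sample left out. Between the lines ISG15 was −0.08 (median-ratio), −0.04 (GC adjustment) and −0.47 to 0.67 (a sample left out) in DMSO, and −0.14 (median-ratio) and −0.31 to 0.36 (a sample left out) in PKC412; IFIT2 in DMSO ranged from −0.36 to 0.09. Depth could not be assessed, and 2 DMSO samples per line limit what can be shown.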
